A study of Mus musculus with 12 samples.

Results

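A set of 10 immediate early genes was followed across hippocampal cultures given a γ-secretase inhibitor, soluble ErbB4, both, or vehicle. They are Fos, Fosb, Jun, Junb, Egr1, Egr3, Arc, Npas4, Nr4a1 and Ier2. They were taken by gene name from the gene table, where they are 10 of 21312 loci, of 19336 loci with a gene name, and of the 15656 genes that passed the filter on low counts. All 10 passed it.

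The cultures were made from hippocampi of WT mice at P4 or P5, and no other genotype entered. There were 4 conditions with 3 libraries each. DAPT + sErbB4 cultures were given 20 µM DAPT and then 20 nM sErbB4. DAPT cultures were given 20 µM DAPT alone, sErbB4 cultures 20 nM sErbB4 alone, and vehicle cultures neither. γ-Secretase, which DAPT inhibits, is the membrane protease that cuts Type III Nrg1, Notch receptors and other proteins. sErbB4 is the soluble extracellular part of ErbB4, a receptor for Nrg1, used as an Fc fusion and applied for 4 h. Pretreatment began after 8 d in culture and is described both as overnight and as a full day. DMSO was the vehicle for DAPT and PBS that for sErbB4. The 3 libraries of a condition are platings that together drew on several mice and litters, and the labels do not say which mice went into each. P values therefore measure the spread between these platings, which may be partly technical.

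Immediate early genes are transcribed within minutes of a stimulus without new protein synthesis. In neurons, calcium entry and the ERK pathway act on CREB, SRF with its ELK partners, and MEF2 at their promoters. Several encode transcription factors. FOS and JUN proteins pair into AP-1, EGR proteins bind GC-rich sites, and NPAS4 is a neuron-restricted factor driven by calcium entry. Arc encodes a synaptic protein that promotes AMPA receptor endocytosis. Their transcripts are short-lived, so a level read hours after a stimulus is a level at that time and not the peak of a response.

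Promoters are shown first because the factors named above act at them. How far promoters set the levels in these cultures was not tested. RefSeq sequence (GRCm38.p6) of 300 bases, most of them before the annotated start, was held for 6 of the 10 genes, Fos, Fosb, Jun, Junb, Npas4 and Nr4a1. Capitals mark TGACG, the core of the CREB-binding site (CRE), on either strand (CGTCA when it lies on the other strand), or, in Jun, TGACATCA, the AP-1 and ATF site. Fosb and Nr4a1 are shown as genes with positive DAPT differences, Jun as the gene that was lower in every DAPT library, and Fos as the gene with the largest library-to-library spread among the abundant ones. They lie at chr7:19309996-19310295 (minus strand), chr15:101266596-101266895 (plus strand), chr4:95052173-95052472 (minus strand) and chr12:85473640-85473939 (plus strand).
Fosb: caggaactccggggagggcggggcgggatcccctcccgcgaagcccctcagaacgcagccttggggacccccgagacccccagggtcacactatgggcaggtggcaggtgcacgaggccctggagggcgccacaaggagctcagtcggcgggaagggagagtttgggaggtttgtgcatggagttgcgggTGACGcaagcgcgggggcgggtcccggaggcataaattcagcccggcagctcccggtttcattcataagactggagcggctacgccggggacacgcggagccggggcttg
Nr4a1: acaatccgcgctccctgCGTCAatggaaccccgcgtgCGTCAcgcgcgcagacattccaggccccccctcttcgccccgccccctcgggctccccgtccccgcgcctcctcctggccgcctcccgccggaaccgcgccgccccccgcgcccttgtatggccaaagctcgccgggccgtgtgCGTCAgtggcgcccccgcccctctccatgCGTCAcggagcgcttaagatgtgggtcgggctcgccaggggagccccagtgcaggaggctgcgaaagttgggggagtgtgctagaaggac
Jun: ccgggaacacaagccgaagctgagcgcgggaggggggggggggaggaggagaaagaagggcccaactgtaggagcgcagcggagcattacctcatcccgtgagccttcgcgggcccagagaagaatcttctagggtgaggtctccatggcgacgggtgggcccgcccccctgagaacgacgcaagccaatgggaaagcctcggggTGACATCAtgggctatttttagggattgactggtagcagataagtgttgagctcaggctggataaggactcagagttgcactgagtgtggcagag
Fos: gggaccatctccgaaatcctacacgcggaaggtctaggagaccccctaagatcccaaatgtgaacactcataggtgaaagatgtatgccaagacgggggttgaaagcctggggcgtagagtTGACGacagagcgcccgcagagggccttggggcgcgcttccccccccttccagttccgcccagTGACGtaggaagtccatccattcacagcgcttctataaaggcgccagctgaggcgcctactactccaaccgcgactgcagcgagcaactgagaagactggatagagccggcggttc

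TGACG was present in 5 of the 6 promoters, against 20.8% of 32851 promoters of the same length. Nr4a1 held it 4 times, Fos and Npas4 2 times each, and Fosb and Junb once. The Fosb copy began 60 bases before the start and the Fos copies 66 and 129 bases before it. Jun had none. Its TGACATCA began 45 bases before the start, and this site was found in 3.62% of all promoters. The full palindrome TGACGTCA, which contains TGACG, was in 0 of 6 promoters and in 1.79% of all. The CArG box bound by SRF was in 0 of 6 and in 1.63% of all, and the AP-1 site TGACTCA in 0 of 6 and in 5.2% of all. TATAAA was in Fos and Junb, and in 13.6% of all promoters. Matches were searched on both strands and describe letters, not binding, and a motif missing from this window may lie elsewhere. The windows of Npas4 and Nr4a1 lie wholly inside the longer GENCODE spans of these genes, and so do their TGACG copies.

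Library totals, in units of 1000000 estimated counts, were 36.5 to 54.4, of which 18.7 to 30.8 fell on named genes. Levels are given as counts per 1000000 counts of the genes tested (CPM), after TMM scaling between libraries. On the second principal component of all genes tested, sErbB4 replicate 1 was at -47.8, against 15.8 and 16.7 for sErbB4 replicates 2 and 3, and vehicle replicate 3 was at -30.2, against -0.427 and 11.1 for vehicle replicates 1 and 2. Neuron markers were detected in all libraries. Their summed level was 1610 to 1700 CPM in DAPT + sErbB4, 1470 to 1550 in DAPT, 1390 to 1500 in sErbB4 and 1270 to 1350 in vehicle. The sums of astrocyte and radial glia markers were 7780 to 8120, 8270 to 8800, 8810 to 9510 and 9330 to 10400 CPM in the same order.

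Jun was the most abundant of the 10 genes, with a mean of 76.6 CPM over the 12 libraries, followed by Fos at 30.2, Junb at 17.6, Fosb at 15.4 and Ier2 at 11.2 CPM. Egr3 averaged 9.77, Egr1 8.67, Nr4a1 7.37 and Arc 5.49 CPM. Npas4 was lowest at 1.24 CPM. Across 12534 genes, which are not independent replicates, the deposited values showed no increase with the length of the transcript (Spearman correlation -0.174). This cannot show that the values are free of length, since expression itself may vary with length. The order of the 10 genes by level assumes that they are. Jun lay above 90.6% of all genes tested and Npas4 above 13.9%. Among condition means, the highest was 1.62 times the lowest for Npas4, 1.46 times for Egr3, 1.43 times for Nr4a1 and 1.41 times for Arc, with smaller ratios for the others.

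**Figure D1:**
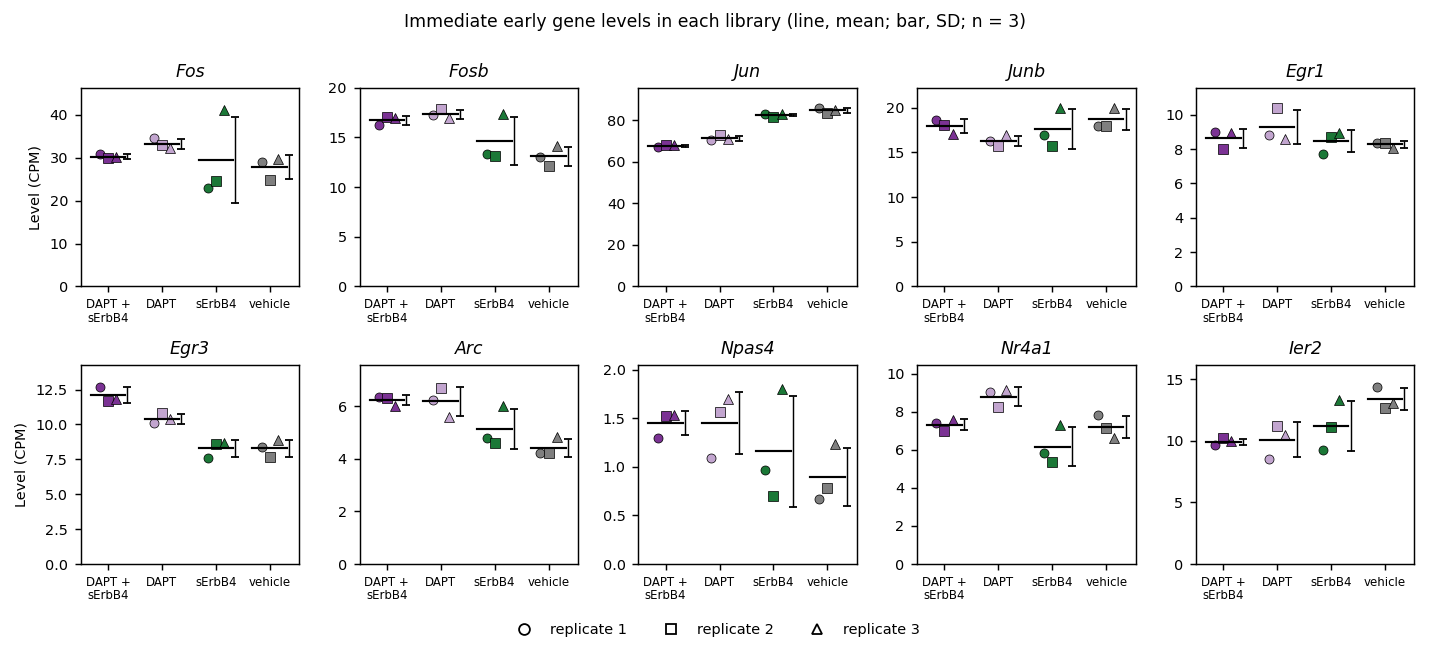
Level of each immediate early gene (CPM, vertical axes from 0) in the 3 libraries of DAPT + sErbB4, DAPT, sErbB4 and vehicle cultures. Points are libraries, horizontal lines condition means and bars the SD. The 6 libraries with DAPT lie above the other 6 for Egr3 and below them for Jun, and sErbB4 replicate 3 (triangle) is the highest sErbB4 library in every panel.

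A gene was called where edgeR's quasi-likelihood test gave an adjusted p under 0.05 over all genes tested and the change passed a fold limit. This limit was passed, in either direction, where the higher level exceeded the lower by more than 25%, which is 0.32 on the log2 scale. With DAPT alone against vehicle, Arc, Egr3 and Fosb rose and Ier2 fell, so that 4 of 10 genes were called, where 11.6% of all genes tested were. Calls toward higher levels made up 4.66% of all genes and calls toward lower levels 6.92%. By adjusted p alone 5 of 10 passed, as did 23.7% of all genes, since Jun was added. The median of the 10 log2 fold changes was 0.27, beside 0.01 over all genes. With sErbB4 present in both arms, Egr3 alone was called in DAPT + sErbB4 against sErbB4, where 11.7% of all genes were. Jun was added there by adjusted p alone (2 of 10, beside 24.5% of all genes). Over both sErbB4 states together (the mean DAPT effect) Arc and Egr3 were called, where 13.2% of all genes were. By adjusted p alone, Fosb, Nr4a1, Ier2 and Jun were added, which made 6 of 10, where 37.8% of all genes passed. All comparisons share libraries with others, so their values are given side by side and not as separate support.

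Egr3 encodes a zinc finger factor induced by synaptic activity and by growth factors. Its level was 12.7, 11.7 and 11.8 CPM in DAPT + sErbB4, 10.1, 10.8 and 10.4 in DAPT, 7.57, 8.62 and 8.67 in sErbB4, and 8.38, 7.64 and 8.87 in vehicle. Each library with DAPT lay above each library without it, a separation toward higher levels that 8.6% of all genes tested showed. Egr3 rose by 0.54 ± 0.07 on the log2 scale (SE, adjusted p = 2e-04) in DAPT + sErbB4 against sErbB4, and by 0.32 ± 0.07 (adjusted p = 0.007) in DAPT against vehicle. The second value sits at the fold limit, and the call was lost without vehicle replicate 2 (0.27) or DAPT replicate 2 (0.30), and with limma on log2(CPM + 2) (0.24). DAPT + sErbB4 means were the highest for this gene, with a log2 difference of 0.21 from DAPT (95% confidence interval 0.06 to 0.36) that did not pass correction (adjusted p = 0.4).

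Arc had 6.35, 6.33 and 6.01 CPM in DAPT + sErbB4, 6.24, 6.7 and 5.59 in DAPT, 4.79, 4.6 and 6.01 in sErbB4, and 4.23, 4.21 and 4.82 in vehicle. The DAPT libraries lay above all vehicle libraries, and sErbB4 replicate 3 was the only library without DAPT that reached into their range. Arc rose by 0.48 ± 0.11 in DAPT against vehicle (adjusted p = 0.0097) and by 0.38 ± 0.08 over both sErbB4 states (adjusted p = 0.0025). With limma on log2(CPM + 2) both calls were lost, since the differences (0.31 and 0.25) fell inside the fold limit. In DAPT + sErbB4 against sErbB4 its log2 fold change was 0.28 (adjusted p = 0.08) with all libraries, and 0.41 (adjusted p = 0.012) without sErbB4 replicate 3. The second value leaves out a library picked for its high levels of these genes, Arc among them.

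Fosb codes for a FOS family subunit of AP-1. It had 16.2, 17 and 16.9 CPM in DAPT + sErbB4, 17.2, 17.9 and 16.9 in DAPT, 13.3, 13.1 and 17.3 in sErbB4, and 13, 12.1 and 14.1 in vehicle. The 6 libraries with DAPT kept within 16.2 to 17.9 CPM, and 5 of the 6 others were below them. Fosb rose by 0.40 ± 0.10 in DAPT against vehicle (adjusted p = 0.01). In DAPT + sErbB4 against sErbB4 it was not called (0.20 ± 0.09, adjusted p = 0.14). Over both sErbB4 states the log2 difference was 0.30 ± 0.07 (adjusted p = 0.0039), under the fold limit.

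Fos, the founding member of that family, was not called in any comparison of all libraries. Its levels were 30.8, 29.8 and 30.1 CPM in DAPT + sErbB4, 34.5, 32.9 and 32.3 in DAPT, 22.9, 24.5 and 41 in sErbB4, and 28.9, 24.7 and 29.7 in vehicle. The DAPT libraries lay above the vehicle libraries, with a log2 difference of 0.25 (95% confidence interval -0.13 to 0.63, adjusted p = 0.34). All conditions share 1 estimate of spread per gene, and the sErbB4 libraries of Fos had an SD of 34% of their mean. Fos was neither called nor shown to be level.

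Jun, the main partner of FOS proteins, moved the other way. It had 67.2, 68.1 and 68 CPM in DAPT + sErbB4, 70.7, 72.9 and 70.8 in DAPT, 82.8, 81.8 and 82.9 in sErbB4, and 86.1, 83.7 and 84.8 in vehicle. Each library with DAPT lay below each library without it, as for 11.8% of all genes tested. The log2 difference was -0.28 ± 0.03 (adjusted p = 6.4e-05) in DAPT + sErbB4 against sErbB4 and -0.25 ± 0.03 (adjusted p = 0.00018) in DAPT against vehicle. Both stayed inside the fold limit, so Jun was not called there. It was called in DAPT + sErbB4 against vehicle only (-0.32, adjusted p = 1.9e-05), at that limit. The antisense gene Junos overlaps Jun, and whether counting used strand is not given in the sources used here.

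Junb, a JUN family subunit with weaker activating capacity, had 18.6, 18.1 and 17.1 CPM in DAPT + sErbB4, 16.3, 15.7 and 16.9 in DAPT, 17, 15.7 and 20 in sErbB4, and 18, 18 and 20 in vehicle. All 3 DAPT libraries were below the 3 vehicle libraries (log2 difference -0.19, adjusted p = 0.12), whereas DAPT + sErbB4 and sErbB4 libraries overlapped (0.03, adjusted p = 0.83). Prdx2 overlaps it on the opposite strand.

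Ier2 encodes a nuclear protein of the early response. Its level was 9.7, 10.2 and 9.96 CPM in DAPT + sErbB4, 8.5, 11.2 and 10.5 in DAPT, 9.3, 11.1 and 13.3 in sErbB4, and 14.4, 12.7 and 13.1 in vehicle. Vehicle libraries were above all DAPT and DAPT + sErbB4 libraries, and the sErbB4 libraries spread over both ranges. Ier2 fell by 0.42 ± 0.12 on the log2 scale in DAPT against vehicle (adjusted p = 0.03), a call lost without vehicle replicate 1 (-0.36), vehicle replicate 3 (-0.44), DAPT replicate 1 (-0.30) or DAPT replicate 3 (-0.43). In DAPT + sErbB4 against sErbB4 the difference was -0.18 (adjusted p = 0.35).

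Nr4a1 encodes an orphan nuclear receptor. It had 7.39, 6.99 and 7.58 CPM in DAPT + sErbB4, 9.05, 8.22 and 9.11 in DAPT, 5.84, 5.33 and 7.32 in sErbB4, and 7.83, 7.14 and 6.64 in vehicle. DAPT alone gave the highest levels, above every library of the other conditions. The log2 difference was 0.29 ± 0.11 in DAPT against vehicle (adjusted p = 0.075) and 0.25 ± 0.11 in DAPT + sErbB4 against sErbB4 (adjusted p = 0.11). Over both sErbB4 states it was 0.27 ± 0.08 (adjusted p = 0.015, under the fold limit).

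Egr1 and Npas4 were not called in any comparison. Egr1, the best-known EGR factor, had 9, 8 and 8.93 CPM in DAPT + sErbB4, 8.85, 10.4 and 8.59 in DAPT, 7.73, 8.71 and 8.96 in sErbB4, and 8.38, 8.37 and 8.05 in vehicle. These ranges are close, and the mean DAPT effect was 0.09 (95% confidence interval -0.04 to 0.23). Npas4 had 1.3, 1.52 and 1.53 CPM in DAPT + sErbB4, 1.09, 1.56 and 1.7 in DAPT, 0.966, 0.702 and 1.8 in sErbB4, and 0.665, 0.787 and 1.23 in vehicle. Its mean DAPT effect had the largest point estimate of the 10 genes, 0.52, with an interval from -0.03 to 1.07 (adjusted p = 0.13).

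**Figure D2:**
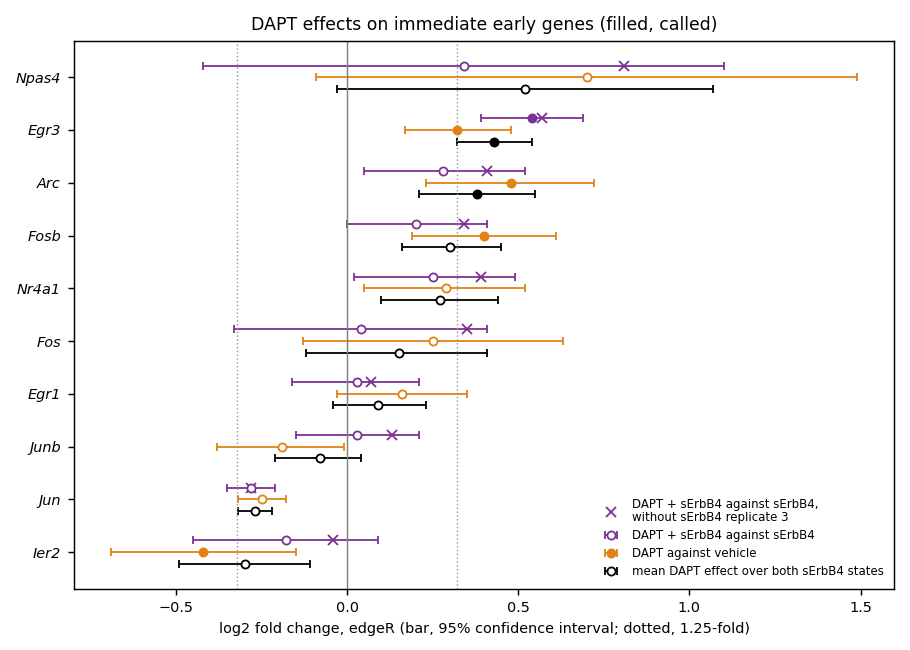
Log2 fold change of each immediate early gene (horizontal axis) in DAPT + sErbB4 against sErbB4, in DAPT against vehicle, and as the mean of both, with 95% confidence intervals. Filled points were called, dotted lines mark the fold limit (0.32), and crosses give DAPT + sErbB4 against sErbB4 without sErbB4 replicate 3. That library was picked by its high levels of these genes. Egr3 is filled in all 3, and Jun is negative throughout with the narrowest intervals.

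sErbB4 alone for 4 h changed none of the 10 genes past the test. Against vehicle, 0 of 10 were called, where 0.0319% of all genes (5 genes) were. This was edgeR's count, and DESeq2 and limma also called 0 of the 10. At an unadjusted p under 0.05 by edgeR there were 1184 of 15656 genes and 0 of the 10. Intervals of the log2 difference ran from -0.17 to 0.16 for Egr3, from -0.11 to 0.03 for Jun, from -0.04 to 0.46 for Arc and from -0.30 to 0.46 for Fos. The whole interval lay within the fold limit of 0.32 in both directions for Jun, Egr3, Egr1 and Junb. It passed the limit on the higher side for Fosb, Arc and Fos, on the lower side for Nr4a1 (-0.48 to 0.01) and Ier2 (-0.52 to 0.01), and on both sides for Npas4 (-0.44 to 1.16).

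On top of DAPT, sErbB4 likewise gave 0 calls among the 10 and 0% over all genes. By edgeR 1442 of 15656 genes were at an unadjusted p under 0.05, 3 of them among the 10. DESeq2 called 8 genes and limma 1 in this comparison, and neither called an immediate early gene. The 3 genes were Egr3 (0.21), Jun (-0.08) and Nr4a1 (-0.27). Nr4a1 was lower with sErbB4 in both DAPT states, with a mean sErbB4 effect of -0.25 ± 0.08 that did not pass correction (adjusted p = 0.2). For that mean effect edgeR called 0 of 10 genes and 0.0447% of all genes, and DESeq2 and limma also called 0 of the 10. By edgeR 1982 of 15656 genes had an unadjusted p under 0.05 there, 2 of them among the 10. By edgeR the interaction of DAPT and sErbB4 was called for 0 of 10 genes and for 0.00639% of all genes (1 gene). Its unadjusted p was under 0.05 for 565 of 15656 genes and for 0 of the 10. DESeq2 and limma called 0 of the 10. The effect of sErbB4 was thus not shown to differ with DAPT for any of them.

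Direct comparison of the single treatments gave 2 calls, both toward lower levels in sErbB4, where 10.1% of all genes were called and 4.05% were lower. Egr3 was lower in sErbB4 than in DAPT (-0.33, adjusted p = 0.0063), as was Nr4a1 (-0.52, adjusted p = 0.0046). The Egr3 call was lost without sErbB4 replicate 1 (-0.27) or DAPT replicate 2 (-0.31). Cultures given both agents differed from vehicle in 5 of the 10 genes, where 15.1% of all genes did (6.75% higher and 8.34% lower). Arc (0.49), Egr3 (0.53) and Fosb (0.35) rose, and Ier2 (-0.43) and Jun (-0.32) fell. The calls of Fosb, Ier2 and Jun were each lost without vehicle replicate 1 (0.35, -0.38 and -0.31). That left 2 of the 10, beside 12.6% of all genes. The Fosb call was also lost without vehicle replicate 2 (0.31), DAPT + sErbB4 replicate 2 (0.34) or DAPT + sErbB4 replicate 3 (0.34). The Ier2 call was also lost without DAPT + sErbB4 replicate 1 (-0.42) or 3 (-0.43), and the Jun call without DAPT + sErbB4 replicate 1 (-0.32). In the order of condition means, neighbouring conditions were called apart for Egr3 alone, at the step between DAPT and vehicle. Jun differed between sErbB4 and DAPT (0.21, adjusted p = 0.00072) inside the fold limit.

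sErbB4 replicate 3 was the highest of the 3 sErbB4 libraries for all 10 genes, where it was so for 31.9% of all genes tested. Relative to the mean of sErbB4 replicates 1 and 2, Npas4 was 2.16-fold, Fos 1.73-fold, Fosb 1.32-fold, Nr4a1 and Ier2 1.31-fold, Arc 1.28-fold and Junb 1.23-fold as high. For Egr1 (1.09), Egr3 (1.07) and Jun (1.01) the library was close to the others. The ratio of Npas4 exceeded that of 99% of all genes tested, and that of Fos 98.1%. In the same library, all 10 genes of the ERK feedback list (Etv4 and Etv5 included), 6 of 8 neuron markers and 0 of 8 proliferation genes were highest among the sErbB4 libraries. Of the list of 6 other EGR and NR4A genes, which also holds Nab1 and Nab2, 5 were highest there. The part of these in the immediate early gene levels was not tested.

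sErbB4 replicate 3 was singled out by the levels of these same genes. Leaving it out lowers the sErbB4 mean of each of the 10, so the resulting differences are descriptions and not support. Without sErbB4 replicate 3, 5 of the 10 genes rose in DAPT + sErbB4 against sErbB4, where 11.1% of all genes were called. They were Egr3 (0.57), Arc (0.41), Nr4a1 (0.39), Fos (0.35) and Fosb (0.34). For the mean DAPT effect the called genes numbered 5 as well, Arc, Egr3, Fosb (0.37), Npas4 (0.75) and Nr4a1 (0.34), beside 13% of all genes. In sErbB4 against DAPT 5 genes were lower, among them Fos (-0.48), where 9.28% of all genes were called. The count in sErbB4 against vehicle stayed at 0, with Fos at -0.23 in place of 0.08 and Npas4 at -0.10 in place of 0.36. Without sErbB4 replicate 1, the library apart on the second component, Egr3 alone was called in DAPT + sErbB4 against sErbB4 (12.6% of all genes). In the mean DAPT effect, where 14% of all genes were then called, Ier2 (-0.35) joined Arc and Egr3. Ier2 (-0.34) also joined them without DAPT replicate 2, and Fosb (0.33) without vehicle replicate 3.

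**Figure D3:**
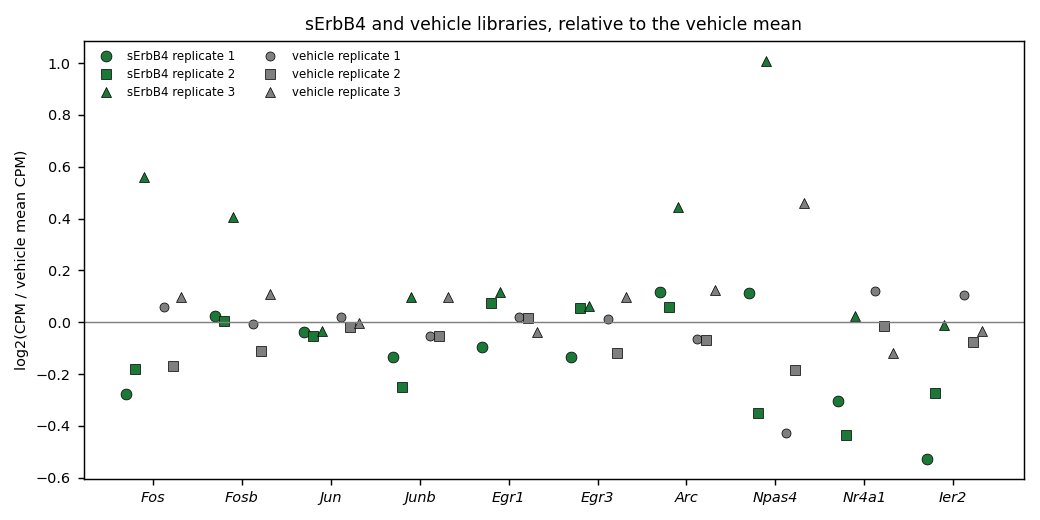
Level of each immediate early gene in the sErbB4 and vehicle libraries as log2 of its ratio to the vehicle mean (vertical axis). sErbB4 replicate 3 (green triangle) stands above sErbB4 replicates 1 and 2 most for Npas4 and Fos and hardly for Jun.

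Related genes were counted from lists of the same pathways, in the mean DAPT effect, where 5.54% of all genes were called higher and 7.7% lower. The list of 6 other EGR and NR4A genes also held Nab1 and Nab2, which belong to neither family. Of these 6, 3 rose. Nr4a3, a close relative of Nr4a1, averaged 36 ± 2.53 CPM in DAPT + sErbB4 and 38.9 ± 1.33 in DAPT, against 25.3 ± 3.07 in sErbB4 and 25.5 ± 1.9 in vehicle (SD, n = 3 each). Its log2 fold change was 0.56, and those of Egr4 and Nr4a2 were 0.42 and 0.35. Of 7 other AP-1 and ATF genes, Fosl2 rose (0.36), Jdp2, a repressor of AP-1, fell (-0.34), and Fosl1 fell (-1.10) at levels under 1 CPM. Of 28 other rapid response genes, 3 rose and 5 fell with a median of 0.09. Ccn2 (0.63), the stress gene Gadd45g (0.59) and Rgs2 (0.43) were higher, and the pseudokinase gene Trib1 (-1.20), Csrnp1 (-0.51), Ccn1 (-0.51), Zfp36 (-0.37) and Amigo3 (-0.34) lower. Homer1, whose short activity-induced form cannot be read from gene-level values, had 0.18 and was not called.

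Among 12 later activity-regulated genes, which follow the transcription factors by hours, 4 rose and 1 fell (median 0.31, beside 0.01 over all genes). Pcsk1, a prohormone convertase, averaged 12.8 ± 0.329 CPM in DAPT + sErbB4 and 11.9 ± 0.915 in DAPT, against 7.6 ± 1.84 in sErbB4 and 6.12 ± 0.616 in vehicle (SD, n = 3 each), a log2 fold change of 0.86. The granin gene Scg2 (0.43), Rasgrp1 (0.35) and the neurotrophin gene Bdnf (0.33) also rose, and Penk fell (-0.33). The fall of Penk came from DAPT alone, at 2.36 CPM against 3.6 in vehicle. With sErbB4 in both arms Penk was similar, at 3.53 CPM in DAPT + sErbB4 and 3.67 in sErbB4. Of 21 upstream activators, 4 rose, among them Camk4 (0.36), Mef2c (0.35) and Camk2a (0.34), and Rps6ka1, an ERK-activated kinase gene, fell (-0.65).

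Genes that ERK signaling induces, as its own feedback or as the transcription factor genes Etv4 and Etv5, mostly fell. Of 10 such genes 8 fell (median -0.72), led by Etv4 (-1.88), Dusp6 (-1.42), Spry1 (-1.01), Spry4 (-0.83) and Etv5 (-0.82). The 10 immediate early genes were mixed. In the same comparison 7 were positive, with Arc (0.38) and Egr3 (0.43) called. The other 3, Jun (-0.27), Ier2 (-0.30) and Junb (-0.08), were negative and not called. Dusp6, a phosphatase of ERK, averaged 22.1 ± 0.718 CPM in DAPT + sErbB4 and 22.5 ± 0.153 in DAPT, against 59 ± 5.06 in sErbB4 and 60.9 ± 2.6 in vehicle (SD, n = 3 each). Of 8 heat shock genes, counted as signs of stress, 4 had an adjusted p under 0.05, all inside the fold limit, between -0.16 for Hspe1 and 0.26 for Hspa1a, whose reads can be split with its near-identical copy Hspa1b.

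Cell type markers also moved with DAPT. Of 8 neuron markers 2 rose. Their median was 0.23, beside 0.21 for the 10 immediate early genes. Without sErbB4 replicate 3, picked by the immediate early genes' own levels, these medians were 0.24 and 0.32. All 8 proliferation genes fell (median -1.42), with summed levels of 26.9 to 28 CPM in DAPT + sErbB4 and 29.2 to 32 in DAPT, against 69.2 to 77.9 in sErbB4 and 73.8 to 82.4 in vehicle. Oligodendrocyte precursor markers fell in 4 of 6 cases (summed 521 to 548 and 557 to 595 CPM, against 999 to 1080 and 1070 to 1080 in the same order). Of 8 astrocyte and radial glia markers 1 rose and 3 fell, of 6 microglia markers 1 fell, of 6 pericyte and fibroblast markers 2 rose and 2 fell, and of 5 endothelial markers 3 passed the low-count filter, with no call and no unadjusted p under 0.05. In bulk libraries, fewer cells of a type and less RNA per cell cannot be told apart, and the part of these shifts in the immediate early gene levels was not tested.

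**Figure D4:**
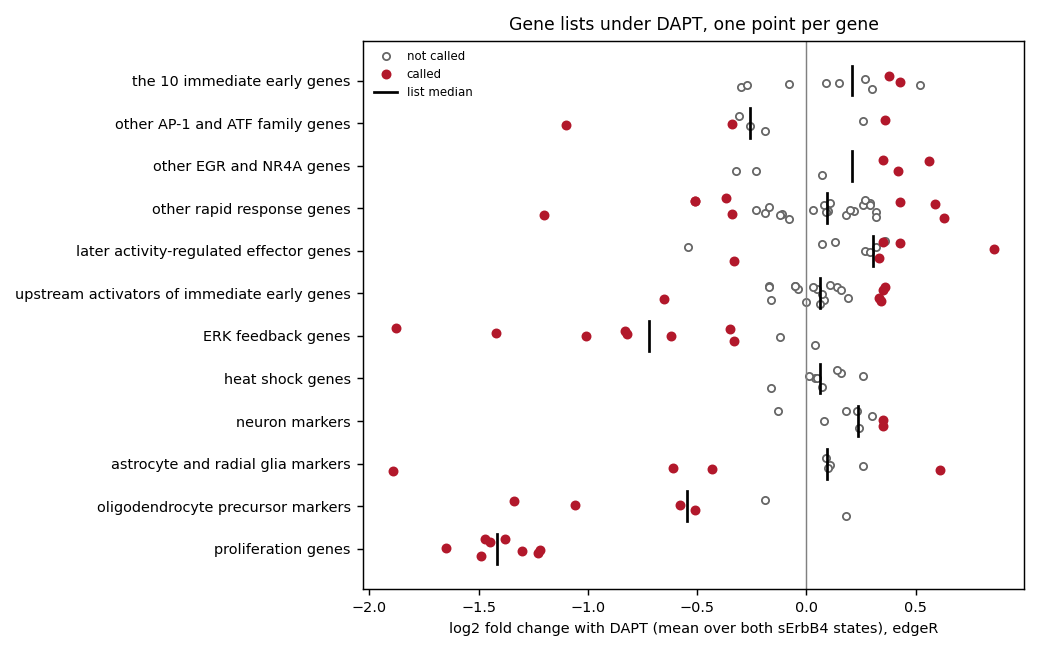
Log2 fold change with DAPT, as the mean over both sErbB4 states (horizontal axis), of each gene in the lists named at the left. Points are genes, red points were called, and vertical bars are list medians. The immediate early genes lie on both sides of 0 (median 0.21), and ERK feedback (median -0.72) and proliferation genes (median -1.42) lie mostly or wholly below it.

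The genes whose 12 library values lay nearest to those of a called immediate early gene were found by the root mean square difference of log2 CPM after centring on each gene's mean. Nearest to Arc were Vgf (0.077), Cacng2 (0.08) and Shisa6 (0.08), where Arc itself varied by 0.231 around its mean. Nearest to Egr3 were Btbd3 (0.054), Ogfrl1 (0.075) and Kcnj4 (0.078), and nearest to Fosb were Cacng2 (0.055), Fcgr3 (0.061) and Ablim3 (0.07). Vgf encodes a neuropeptide precursor and Cacng2 an AMPA receptor auxiliary subunit. Jun lay nearest to Vash1 (0.031), Pag1 (0.033) and Phlpp1 (0.036). For Nr4a1 the nearest were Farp2 (0.102), Tmem216 (0.103) and Bmp2k (0.109), and for Ier2 they were Pdgfa (0.104), Tubb2a-ps2 (0.119) and Rnf26 (0.12). These are descriptions over 12 libraries that share condition effects and depth.

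By GENCODE M21 on GRCm38, the build of the files, the genes lie at chr12:85473890-85477273 (Fos), chr7:19302696-19310051 (Fosb), chr4:95049034-95052222 (Jun), chr8:84974484-84978718 (Junb), chr18:34859823-34864984 (Egr1), chr14:70077203-70082614 (Egr3), chr15:74669083-74672570 (Arc), chr19:4984355-4990316 (Npas4), chr15:101254269-101274795 (Nr4a1) and chr8:84661331-84662852 (Ier2).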

How the data were processed

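RNA was sequenced from 12 poly-A selected libraries of cultured WT hippocampal cells, 3 per condition. The submitters' processing notes and the paper's methods name Trimmomatic for trimming, HISAT2 with the mm10 genome for alignment, StringTie for transcript assembly and IsoformSwitchAnalyzeR for gene values, beside FastQC, MultiQC and limma. Their versions are not given in the sources used here. What the authors deposited is a table of estimated counts, not normalized between libraries, with no whole number above 0. Loci with no gene name (1976, holding 43.4 to 51.8% of counts) were left out. Rn45s held 31.4 to 44.6% of named counts.

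Estimated counts were rounded, filtered with filterByExpr, scaled by TMM (factors 0.926 to 1.18) and tested with the quasi-likelihood test of edgeR 4.0.16 in R 4.3.3. The model had 4 condition means and left 8 degrees of freedom. Benjamini-Hochberg adjustment ran over 15656 genes. The SE is the log2 fold change divided by the root of F. A count of 0 would allow up to 3 counts per library, for counting error only. Alternatives were RLE scaling, DESeq2 1.42.0, limma 3.58.1 on log2(CPM + 2) after cyclic loess (the study's normalization, without its floor on low values or its covariance model), no low-count filter, a replicate block, only the 6 libraries compared, unnamed loci kept, Rn45s left out, no fold limit, and each library left out. The scripts were tested on simulated data.

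The immediate early genes and the lists were chosen with earlier results of these data known, so list counts are descriptions. Named genes are the 10 immediate early genes, up to 6 called genes per list by size of the mean DAPT effect (mean of at least 5 CPM), Bdnf and Homer1, and the 3 nearest patterns of each called immediate early gene. Fosl1, Csrnp1, Amigo3, Penk, Hspe1, Hspa1a and Hspa1b fall outside this rule and were named after their values were seen. Promoters and aliases of list genes came from RefSeq tables, gene positions from GENCODE M21.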

Additional observations from a re-analysis of the deposited data

Results flagged for a closer look

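Fosb drew attention because all 3 DAPT + sErbB4 libraries lay on the lower side of the DAPT mean while all 3 sErbB4 libraries lay on the upper side of the vehicle mean. However, sErbB4 replicates 1 and 2 (13.3 and 13.1 CPM) were about level with the vehicle mean (13.1). Only sErbB4 replicate 3 (17.3 CPM) stood clearly above it. The difference between these sErbB4 effects was -0.20 on the log2 scale, and edgeR's interaction test gave it an adjusted p of 1 (unadjusted 0.17), so the difference between the DAPT states was not shown.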

How the results depend on the processing

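Calls lost without a single library are given beside the results. With limma on log2(CPM + 2), a scale that shrinks the change of low genes, 2 of the 10 genes were called in DAPT against vehicle (8.85% of all genes), where Arc and Egr3 lost their calls, 1 in the mean DAPT effect (8.75%), without Arc, 1 in sErbB4 against DAPT (7.93%), without Egr3, and 3 in DAPT + sErbB4 against vehicle (11.6%), without Fosb and Jun, and Nr4a1 was at -0.01 in the last. Without the fold limit, 2 were called in DAPT + sErbB4 against sErbB4 (24.5% of all genes) and 6 in the mean DAPT effect (37.8%). Leaving out each library in turn gave 3 to 4 calls in DAPT against vehicle, beside 9.58 to 11.7% of all genes. It gave 1 to 5 calls in DAPT + sErbB4 against sErbB4, beside 10.2 to 12.6%. The mean DAPT effect had 2 to 5, beside 12.1 to 14%. Calls numbered 1 to 5 in sErbB4 against DAPT, beside 8.7 to 11.4%. They numbered 2 to 5 in DAPT + sErbB4 against vehicle, beside 12.6 to 15.3%. Each other comparison gave 0 calls, beside at most 0.0883% of all genes. The cause was not tested.

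Directions turned under left-out libraries only for differences that were not called. In DAPT + sErbB4 against sErbB4 these ranged from -0.11 to 0.35 for Fos, -0.05 to 0.13 for Junb and -0.03 to 0.08 for Egr1. In sErbB4 against vehicle they ranged from -0.23 to 0.22 for Fos and -0.10 to 0.66 for Npas4. In DAPT + sErbB4 against DAPT they ranged from -0.13 to 0.06 for Ier2 and -0.07 to 0.08 for Arc. The mean sErbB4 effect ranged from -0.18 to 0.04 for Fos, -0.02 to 0.09 for Fosb, -0.03 to 0.06 for Junb, -0.05 to 0.33 for Npas4 and -0.06 to 0.01 for Egr1. Nr4a1 ranged from -0.04 to 0.09 in DAPT + sErbB4 against vehicle, and the interaction from -0.13 to 0.11 for Nr4a1, -0.36 to 0.09 for Fos and -0.66 to 0.10 for Npas4.

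Whether libraries with the same replicate number belong together is not known, and the main model did not pair them. Among the 18 same-number pairs, 8 correlated above 0.1 across 2000 genes. The lowest correlation was -0.282 and the highest 0.356. Such values cannot exclude pairing, since mice shared by 2 libraries need not leave a high correlation. With the replicate block, 1750 genes (11.2%) were called in DAPT against vehicle, in place of 1813. Calls among the 10 genes then numbered 4 in that comparison. They numbered 1 in DAPT + sErbB4 against sErbB4 and 2 in the mean DAPT effect, beside 11.4% and 12.9% of all genes. RLE scaling, DESeq2, no low-count filter, only the 6 libraries compared (for comparisons of a pair of conditions) and Rn45s left out gave the same counts among the 10 genes, and with unnamed loci kept Jun was not called in DAPT + sErbB4 against vehicle (-0.32). Depth limits Npas4 most, at 1.24 CPM.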
